A study of Mus musculus with 2 samples.

Results

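The receptors for IL-12, IL-18, IL-27 and IL-6, with the Janus kinases Jak2 and Tyk2 and the adaptor Myd88, were followed in Th1 cells that had or lacked Chi3l1. The 10 genes (Il12rb1, Il12rb2, Il18r1, Il18rap, Il27ra, Il6ra, Il6st, Jak2, Tyk2 and Myd88) were picked by symbol from the 24421 genes in each table, and 10 of 10 were found. Both groups started from naïve CD4 T cells of C57BL/6J mice, the WT Th1 group from Chi3l1+/+ and the Chi3l1 KO Th1 group from Chi3l1-/- animals, in which chitinase 3-like 1 is disrupted in the germline and so in every cell type. Per the study's methods, T cells were activated on plate-bound antibodies against CD3 and CD28 and skewed with IL-12, IL-2 and an antibody against IL-4, so that both groups had been given the ligand of one of the receptors measured here. The study gives a single age range for all of its mice, and the sources used here do not say how many animals made up a library. There is 1 library per group, so no difference below has a replicate check, no test between the groups is possible, and every interval covers the counting of reads only.

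IL-12 binds a receptor of 2 chains, IL-12Rβ1 and IL-12Rβ2, which carry TYK2 and JAK2 and activate STAT4 in T cells. IL-18 binds IL-18Rα, recruits its accessory chain, and signals through MyD88 and the IRAK kinases. Both cytokines act together on Th1 cells as strong inducers of IFNγ. IL-27 and IL-6 use the common chain gp130, with WSX-1 (Il27ra) or the IL-6 receptor α chain as the specific partner, and act in large part through STAT3.

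The targeted gene went against the labels. Chi3l1, listed as Chil1, had 1 read in the library labelled WT Th1 and 103 reads in the library labelled Chi3l1 KO Th1, and the libraries are therefore called WT-labelled and KO-labelled throughout. Each direction given below rests on those labels. The tables give 1 value per gene, so whether these reads come from exons that the disruption leaves in place cannot be seen. Read counts rebuilt from the deposited values summed to 70711509 in the WT-labelled and 62991545 in the KO-labelled library. All 6 T cell markers were well expressed, and in the deposited values 6 of 6 were lower in the KO-labelled library. Their log2 fold changes ran from -0.025 for Cd3d to -0.525 for Cd5, with Cd4 at 21084 and 16286 reads. Of the 8886 genes with a log2 value of 8 or more in both libraries, 51.2% were lower. The counting intervals of Cd3d (-0.089 to 0.038) and Cd28 (-0.063 to 0.014) included 0. Scaling to the library totals raised the median over all genes above 0 in both libraries from -0.003 to 0.148. That shift is larger than the differences of Cd3d, Cd28 (-0.025) and Cd3e (-0.078), so their signs depend on the scaling. Of the Th1 markers, Tbx21, which encodes T-bet, had 16692 and 13905 reads, the chemokine receptor gene Cxcr3 was lower by more than 2-fold at 274 and 116 reads (log2 fold change -1.23, interval -1.57 to -0.92), and Ifng was higher, as given with the induced genes. Among markers of other cells, the 4 B cell genes Cd79a, Cd79b, Ms4a1 and Pax5 were higher in the KO-labelled library in 4 of 4, together 692 against 1097 reads. The 7 monocyte and macrophage markers had 718 and 575 reads, with Adgre1 at 0 in both libraries and Cd14 at 0 in the KO-labelled one. The 6 dendritic cell markers had 76 and 126 reads, with Clec9a and Siglech at 0 in both, and went both ways, Flt3 at 18 and 68 reads and Itgax at 44 and 5. The 5 neutrophil markers found had 60 and 5 reads, with Camp at 0 in both. The CD8 T cell markers also went both ways, Cd8a at 289 and 438 reads and Cd8b1 at 550 and 397, and the 3 NK cell markers had 17 and 17 reads in all. Several of these cells also carry IL-6, IL-18 or gp130 receptors and MyD88, and their part in the values below was not tested. In such bulk libraries fewer cells with a receptor and less RNA per cell cannot be told apart.

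In the deposited values (taken to be log2 of 1 plus a normalized count) 7 of the 10 genes were higher in the KO-labelled library and 3 were lower. The 10 genes had between 532 and 21564 reads in a library, and 10 of 10 reached a log2 value of 8 or more in both. None was past 2-fold in either direction. Among all listed genes, 4.70% were higher and 5.81% lower by at least 2-fold, but most of those had few reads. That balance of 1147 higher and 1418 lower genes turned to 1604 and 1132 with the reads scaled to the library totals and to 1475 and 1184 when scaled to Actb, and was 1295 and 1278 after quantile normalization. In the 8886 well expressed genes, meaning a log2 value of 8 or more in both libraries, the shares were 0.461% and 0.743%. Of these, 48.8% were higher and 51.2% lower at any size, and 66.9% were higher when scaled to the library totals. The median log2 fold change was 0.17 over the 10 genes, beside -0.01 over those 8886, whose SD across genes was 0.37.

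**Figure D1:**
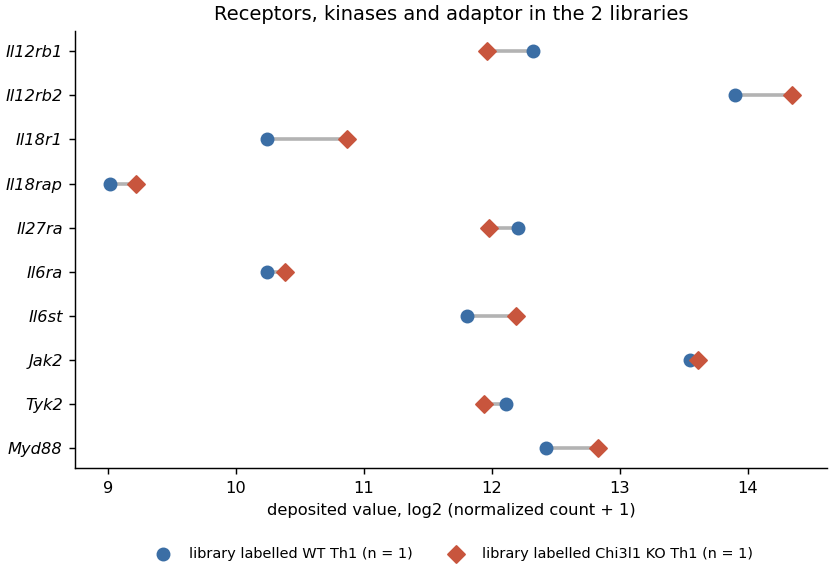
Deposited log2 value (x axis) of each of the 10 genes (rows) in the WT-labelled library (blue circles) and the KO-labelled library (red diamonds), with 1 library per group and a grey line joining the pair. The diamond lies to the right of the circle for 7 genes and to the left for Il12rb1, Il27ra and Tyk2, and the pair is farthest apart for Il18r1, at 10.24 and 10.87.

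The IL-12 receptor chains differed in opposite directions in the deposited values. Il12rb2, the inducible signalling chain that marks Th1 commitment, is a minus-strand gene of chromosome 6, 67291318 to 67376188 (GRCm38). It had a log2 value of 13.90 from 15824 reads in the WT-labelled library and 14.35 from 21564 reads in the KO-labelled library. The KO-labelled library was 1.36-fold higher, with a 95% exact binomial interval from 1.33 to 1.39, and of the 500 genes nearest in mean level 17.2% differed as much in either direction. Il12rb1, the chain shared by the receptors for IL-12 and IL-23, is a plus-strand gene of chromosome 8, 70808449 to 70821424. It had 12.32 from 5296 reads and 11.96 from 4113 reads, a log2 fold change of -0.37 (interval -0.43 to -0.31) that 25.4% of its neighbours in level reached. Per kb of transcript, a scale on which levels of different genes can be compared, Il12rb2 was 2.86 times Il12rb1 in the WT-labelled and 5.02 times in the KO-labelled library. This ratio is taken within a library and does not depend on how the libraries were scaled to each other. It was 1.75 times larger in the KO-labelled library, a log2 difference of 0.81 with a counting SE of 0.03.

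Overlap with another gene and GC content both set these chains apart. Il12rb2 shares 1519 of its 3794 annotated exon bases with Serbp1, an RNA-binding protein gene on the opposite strand, and 819 of these bases lie in its longest coding transcript of 2998 bases. Serbp1 was itself abundant and higher in the KO-labelled library, at 31278 and 41573 reads and a log2 fold change of 0.41. Whether the authors counted by strand is not given in the sources used here, so the reads of the overlap cannot be told apart. How far they enter the level, the fold change and the ratio to Il12rb1 was not tested. GC content was 48.2% for the transcript of Il12rb2 and 58.4% for that of Il12rb1. Across well expressed genes log2 fold changes declined with GC content, from a median of 0.24 in the lowest of 20 bins to -0.46 in the highest. With this trend subtracted the log2 fold change of Il12rb2 was 0.36 and that of Il12rb1 was -0.05, and the difference between the chains was 0.41.

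**Figure D2:**
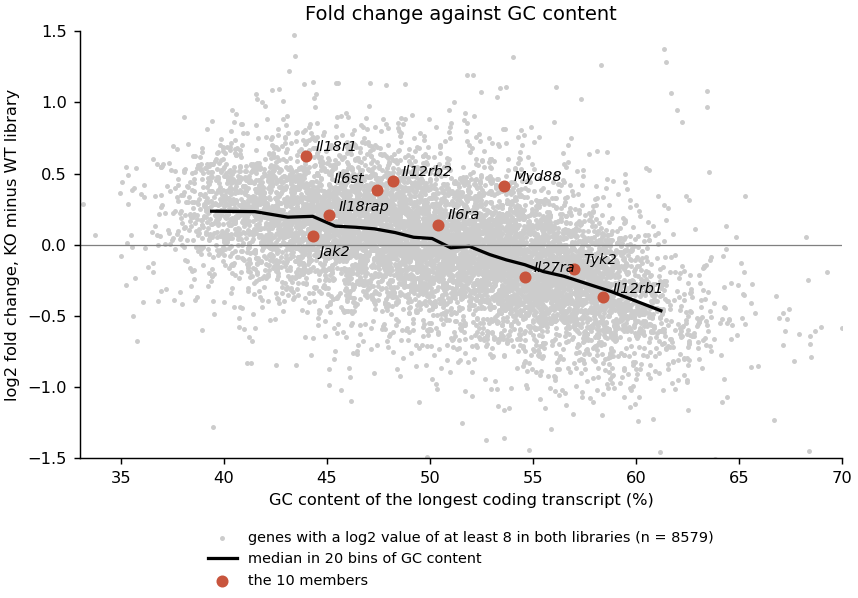
GC content of the longest coding transcript (x axis, %) against log2 fold change of the KO-labelled over the WT-labelled library (y axis) for 8579 well expressed genes with a known transcript (grey), the median in 20 bins of GC content (black line) and the 10 genes (red). The axes leave out 12 genes past 1.5 in either direction and 1 outside 33% to 70%, and the 3 lower genes, Il12rb1, Il27ra and Tyk2, are the 3 members richest in GC, at 54.6% or more.

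The 250 bases before the start of Il12rb2 are shown because this gene had the highest level and one of the largest differences, beside those of Myd88, which was also higher, and Il18rap, which differed less. Capitals mark matches to the GAS motif TTCNNNGAA, the palindrome that STAT dimers bind, and to TCACAC, the half-site of T-box factors such as T-bet, searched on both strands. The sequences are from RefSeq on GRCm38.p6, chr6:67376189-67376438 (minus strand), chr9:119340019-119340268 (minus strand) and chr1:40515112-40515361 (plus strand), each written 5′ to 3′ on the strand of its gene. The windows of Il12rb2 and Il18rap end at the GENCODE gene start. That of Myd88 precedes a RefSeq start that lies 1393 bases inside the gene span given here, at which no GENCODE transcript begins, and 23 of its bases lie in an annotated Myd88 exon.
Il12rb2: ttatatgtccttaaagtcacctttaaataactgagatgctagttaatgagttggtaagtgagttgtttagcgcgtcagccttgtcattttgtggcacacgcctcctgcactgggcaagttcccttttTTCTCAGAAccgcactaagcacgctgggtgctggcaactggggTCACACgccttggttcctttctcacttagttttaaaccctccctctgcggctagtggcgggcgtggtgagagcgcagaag
Myd88: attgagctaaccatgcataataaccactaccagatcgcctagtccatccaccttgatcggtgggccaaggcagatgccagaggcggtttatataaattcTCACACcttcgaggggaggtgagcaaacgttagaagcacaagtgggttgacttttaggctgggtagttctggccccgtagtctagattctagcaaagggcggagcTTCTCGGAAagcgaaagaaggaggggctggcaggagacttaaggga
Il18rap: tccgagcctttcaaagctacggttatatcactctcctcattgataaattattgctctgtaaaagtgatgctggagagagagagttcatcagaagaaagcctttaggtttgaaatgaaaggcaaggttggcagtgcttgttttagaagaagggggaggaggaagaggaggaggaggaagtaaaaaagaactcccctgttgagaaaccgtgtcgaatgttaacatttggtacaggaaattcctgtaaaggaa

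Il12rb2 and Myd88 each held a match to both motifs and Il18rap held neither. Neither motif was found in the window of Il6st, a gene that was also higher in the KO-labelled library. The window at the gene start of Il18r1, the gene with the largest difference, also held neither. Of the 8 genes with an entry in the promoter table, 3 had a GAS match (Il12rb2, Myd88 and one of the starts of Il18r1, with TTCTGGGAA and TTCCCAGAA) and 2 had the T-box half-site. Il12rb1 and Il27ra, both lower in the KO-labelled library, had no entry. Tyk2 was thus the only lower gene searched, and its window held neither motif. A gene was counted if any of its windows held a match, and Il18r1 has several windows. Its matching window precedes a start 454 bases inside the gene span, at which a GENCODE transcript begins. Of the bases of that window, 91 lie in annotated Il18r1 exons. Among 32851 promoter windows of the same length 7.0% held the GAS motif and 12.3% the half-site. These shares are per window and do not compare directly with the counts per gene. A match to these letters is a description of the window, and binding was not measured.

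The IL-18 receptor genes stood apart from each other in size of difference. Il18r1, the ligand-binding α chain, had a log2 value of 10.24 from 1252 reads in the WT-labelled library and 10.87 from 1932 reads in the KO-labelled library. At 1.54-fold (95% exact binomial interval 1.44 to 1.66) this was the largest difference among the 10 genes, and 10% of the 500 genes nearest in level differed as much. In the deposited values it was the only one of the 10 past 1.5-fold, a size that 3.95% of well expressed genes reached upward and 6.29% downward. Il18rap, the accessory chain without which IL-18 does not signal, had 9.01 from 532 reads and 9.22 from 616 reads. The counting interval of its log2 fold change of 0.21 ran from 0.04 to 0.38, and 63.4% of its neighbours in level differed as much. Per kb of transcript Il18r1 was 2.77 times Il18rap in the WT-labelled and 3.69 times in the KO-labelled library. With the trend with GC content subtracted, Il18r1 had 0.43 and Il18rap 0.06.

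Both are plus-strand genes of the IL-1 receptor cluster on chromosome 1 (GRCm38), Il18r1 at 40465552 to 40500854 and Il18rap at 40515362 to 40551705, with 14507 bases between them. They are 93.6 Mb or more from Chil1 on the same chromosome. The gene before them, Il1rl1, which encodes the IL-33 receptor ST2, ends 136 bases before the start of Il18r1. It had 102 reads in the WT-labelled and 69 in the KO-labelled library. Il1rl2, the IL-36 receptor, had 87 and 93 reads, Il1r1 had 3 and 9, and the decoy receptor Il1r2 had 15 and 66 reads, a log2 fold change of 2.07 (interval 1.31 to 3.05). On the other side, the sodium-proton exchangers Slc9a4 and Slc9a2 had 0 and 19 reads in both libraries, and Mfsd9 had 32 and 21. Within this stretch of 9 protein-coding genes only Il18r1 and Il18rap had more than 102 reads in a library. The differences of their neighbours ran in both directions.

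The gp130 receptors also differed in opposite directions in the deposited values. Il6st, which encodes gp130 itself (chromosome 13, 112464070 to 112510086, plus strand), had a log2 value of 11.81 from 3703 reads in the WT-labelled library and 12.19 from 4834 reads in the KO-labelled library. The log2 fold change was 0.38 (interval 0.32 to 0.45), and 22.8% of genes of similar level differed as much. Il6ra, which binds IL-6 and is usually lowered when T cells are activated (chromosome 3, 89864059 to 89913196, minus strand), had 10.24 from 1247 reads and 10.38 from 1376 reads. Its log2 fold change of 0.14 (interval 0.03 to 0.25) was matched by 71.2% of its neighbours in level. Il27ra, the specific chain of the IL-27 receptor (chromosome 8, 84030294 to 84042589, minus strand), had 12.20 from 4866 reads and 11.97 from 4156 reads, and was lower by a log2 fold change of -0.23 (interval -0.29 to -0.17) that 46.0% of its neighbours reached. Per kb, gp130 was at 0.23 of the level of Il27ra in the WT-labelled and 0.36 in the KO-labelled library, and at 2.96 and 3.50 times the level of Il6ra. Subtracting the trend with GC content left Il6st at 0.27, Il6ra at 0.12 and Il27ra at -0.09 on the log2 scale.

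The kinases differed in opposite directions in the deposited values. Jak2 (chromosome 19, 29251828 to 29313080, plus strand), the partner of IL-12Rβ2, had a log2 value of 13.55 from 12381 reads in the WT-labelled and 13.61 from 12956 reads in the KO-labelled library. Its log2 fold change of 0.06 was reached by 85.4% of its neighbours in level. Tyk2 (chromosome 9, 21104068 to 21131243, minus strand), the partner of IL-12Rβ1, had 12.11 from 4569 reads and 11.94 from 4059 reads, a log2 fold change of -0.17 that 55.8% reached. The sign of both was lost with the trend with GC content subtracted, at -0.14 for Jak2 and 0.07 for Tyk2. The adaptor Myd88, which links the IL-18, IL-1 and Toll-like receptors to the IRAK kinases (chromosome 9, 119335934 to 119341411, minus strand), had 12.42 from 5656 reads and 12.83 from 7529 reads. This was 1.33-fold higher in the KO-labelled library (interval 1.29 to 1.38), and 18.4% of genes of similar level differed as much. Its transcript has a GC content of 53.6%, where the trend lies below 0, so that its log2 fold change went from 0.41 to 0.51 with the trend subtracted, the largest of the 10 genes on that scale. Myd88 shares 223 of the 1960 bases of its longest coding transcript with Acaa1a on the opposite strand, which was lower in the KO-labelled library, at 1270 and 1131 reads.

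**Figure D3:**
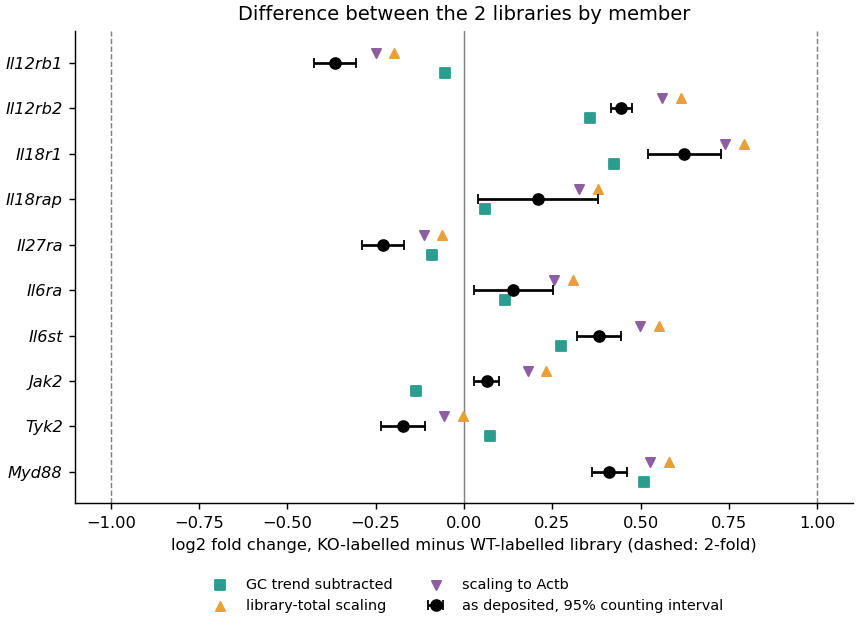
Log2 fold change of the KO-labelled over the WT-labelled library (x axis, dashed lines at 2-fold) for each gene (rows), as deposited with the 95% counting interval (black), with the GC trend subtracted (green squares), with the reads scaled to the library totals (orange triangles) and scaled to Actb (purple triangles). Il12rb2, Il18r1, Il18rap, Il6ra, Il6st and Myd88 lie above 0 under each of these. Il12rb1 and Il27ra lie below 0 under each, and Jak2 and Tyk2 change side with the GC trend subtracted.

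A read was worth nearly the same in both deposited tables, 0.968 and 0.967 normalized counts, although the library totals differed. Scaling by the totals instead raised the median log2 fold change of all genes above 0 in both libraries from -0.003 to 0.148 and that of the 10 genes to 0.34. This adds nearly the same amount to each gene, with Il18r1 at 0.79, Il12rb2 at 0.61, Myd88 at 0.58, Il6st at 0.55 and Il12rb1 at -0.20. On that scale the lower genes Il27ra and Tyk2 were close to equal, at -0.061 and -0.004.

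Per kb of transcript the 10 genes spanned a wide range and kept nearly the same order in both libraries. Il12rb2 was highest, at 5278 reads per kb in the WT-labelled and 7193 in the KO-labelled library, followed by Myd88 (2886 and 3841) and Jak2 (2461 and 2576). Il12rb1 (1843 and 1432) and Il27ra (1827 and 1560) came next and exchanged places, and in the WT-labelled library their Poisson intervals overlapped. Tyk2 had 946 and 841, Il6st 427 and 557, and Il18r1 301 and 465. Il6ra (144 and 159) and Il18rap (109 and 126) were lowest. All other neighbours in this order had intervals that did not overlap. This holds for counting error and for the longest coding transcript of each gene, and Il6ra and Il6st have the longest transcripts, at 8639 and 8678 bases. Il12rb2 shares 819 bases of its longest coding transcript with Serbp1, and how far reads of that overlap enter its level was not tested.

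**Figure D4:**
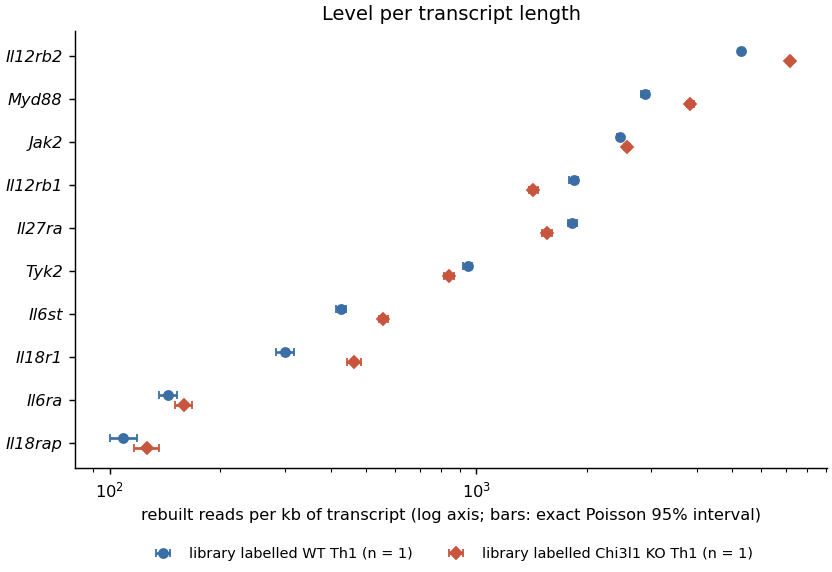
Rebuilt reads per kb of the longest coding transcript (x axis, log scale) for the 10 genes (rows) in the WT-labelled (blue circles) and KO-labelled (red diamonds) library, 1 library each, with exact Poisson 95% intervals as bars. Il12rb2 is highest in both libraries and Il18rap lowest, and only Il12rb1 and Il27ra exchange places.

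The ligands IL-12, IL-18, IL-27 p28 and IL-6 had few reads in both libraries. Il12a and Il12b, the subunits of IL-12, had 17 and 9 reads in the WT-labelled and 25 and 4 in the KO-labelled library. Il18 had 13 and 6 reads, Il27 had 10 and 2, and Il6 had 3 and 0, at or under the limit of 3 reads below which no fold is given. Il23a, the specific subunit of IL-23, had 8 and 35 reads, and its receptor chain Il23r, the partner of IL-12Rβ1 in the IL-23 receptor, had 5 and 14. Ebi3, the partner of IL-27 p28, was well measured and close to equal, at 356 and 353 reads. Il18bp, the secreted inhibitor of IL-18, had 113 and 85 reads. Of the 6 genes of the IL-12 family list 2 were past 2-fold upward and 2 downward, each with no more than 35 reads in a library, and the counting intervals of Il23r and Il12b included 0. Among the 14849 genes with more than 3 reads in a library, 6.03% were past 2-fold upward and 7.74% downward, and of the genes nearest in level to Il23r and Il12b 31.6% and 45.6% differed as much.

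Of the 13 genes of the MyD88 list, 7 were higher, 6 were lower and none was past 2-fold, with a median log2 fold change of 0.18. Values ran from -0.30 for Tab1 to 0.71 for Tirap, the bridging adaptor of Toll-like receptors, at 877 and 1440 reads. With the trend with GC content subtracted, Tab1 had -0.004 and Tirap 0.595. The kinase gene Irak1 had 42169 and 37132 reads, and the kinase gene Irak4 had 994 and 1128. These 4 genes of the list were chosen after their values were seen. Of 8 other Janus kinases and STATs, 4 were higher and 4 lower, between -0.45 for Jak3 and 0.24 for Stat2, and Stat4, the main STAT of IL-12, had 4931 and 5534 reads (log2 fold change 0.17). Subtracting the same trend left Jak3 at 0.011, Stat2 at 0.252 and Stat4 at 0.034. Jak3, Stat2 and Stat4 were likewise chosen after their values were seen. In the gp130 list 5 of 10 genes had more than 3 reads, and Osmr, Cntfr, Il31ra and Lepr were at 0 in both libraries. Of those 5, 1 was past 2-fold upward and 0 downward. This was the ligand gene Il11, at 11 and 26 reads (log2 fold change 1.17, interval 0.173 to 2.405), and 24.4% of its neighbours in level differed as much. Lifr, which pairs with gp130, had 13 and 15 reads, while the ligand Lif had 13968 and 13441. Among 14 genes that IL-12 or IL-18 are known to induce, 10 were higher and 4 lower, with a median log2 fold change of 0.08, beside -0.01 over all listed genes with more than 3 reads in a library. One of the lower genes, Tbx21, went from -0.265 to 0.092 with the trend with GC content subtracted. Past 2-fold were Ifng, at 3486 and 8733 reads, and Il10, at 23 and 58 and below the level set for naming. Of the 10 genes of the IL-18 and IL-1 family list with more than 3 reads, 2 were past 2-fold upward (Il1r2 and Il1r1) and 1 downward (Il18), and the intervals of Il1r1 and Il18 included 0. The inhibitory receptor Sigirr, the most abundant of them, had 6268 and 6757 reads. Il10, Sigirr, Cxcr3 and the single markers of other cells were named after their values were seen.

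**Figure D5:**
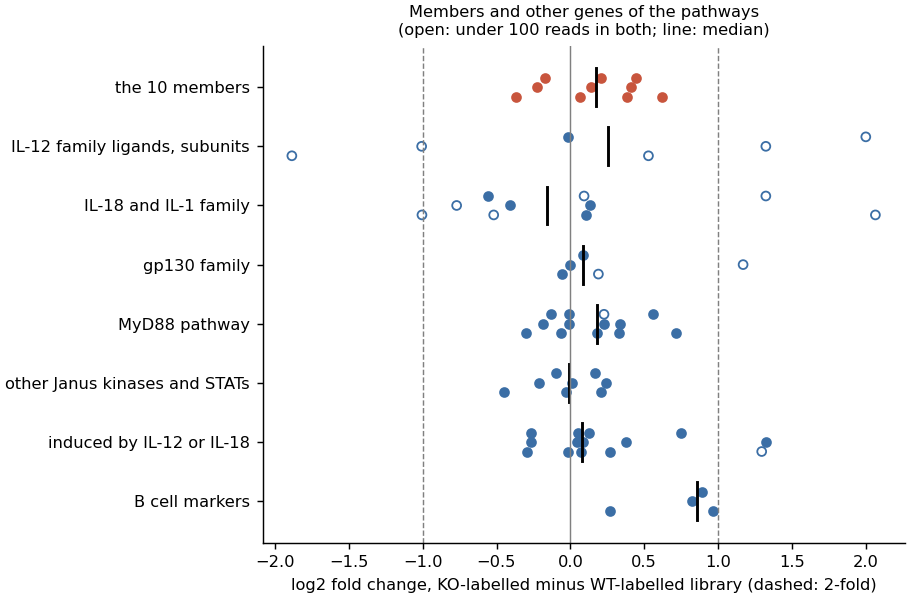
Log2 fold change of the KO-labelled over the WT-labelled library (x axis, dashed lines at 2-fold) for the 10 genes (red), for the other genes of the pathways with more than 3 reads in a library and for B cell markers (blue), 1 row per list, with the median as a black line and open points for genes under 100 reads in both libraries. The 10 genes lie between -0.37 and 0.62, and the points past 2-fold are open except Ifng.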

How the data were processed

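The authors made libraries from polyadenylated RNA with a SENSE mRNA-Seq kit, mapped paired reads with TopHat to mm10 (the build in the submitters' processing notes), counted unique and multiple alignments per gene symbol, so that a read can count for more than 1 gene, and used edgeR. The deposited tables give 1 log2 value per gene, taken to be log2 of 1 plus a normalized count, a unit inferred from the values. After the log2 was undone, 99.8% and 100.0% of values from 5 to 30 reads lay within 0.1 of a whole multiple of a step, found by grid search, and reads were rebuilt with it. Log2 fold changes are Chi3l1 KO Th1 minus WT Th1. Intervals are exact binomial (Clopper-Pearson) or exact Poisson, at 95%, and cover counting error only. With 1 library per group no test was run. Transcript length, GC content and coordinates were taken from GENCODE M21 (GRCm38), with a match for 96.0% of symbols whose log2 value reached 1 in either library. Promoters came from RefSeq. The trend with GC content is the median over 20 bins. The members and lists were chosen with earlier results of these data known. Some genes of the kinase and B cell lists are not reported here and were left out of their counts. Named are the 10 members, genes of the pathway lists past 2-fold whose log2 value reached 6 in either library, ligands, partner chains and chromosome neighbours. Alternatives covered pseudocounts, filters, scalings, the GC trend and thresholds. Rebuilding was tested on simulated data. Software was Python 3.11.15 with scipy 1.17.1, numpy 2.4.6, matplotlib 3.10.9 and pandas 2.3.3.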

Additional observations from a re-analysis of the deposited data

How the results depend on the processing

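With 1 library per group, no result has a replicate check. No paired analysis was possible because each group has 1 library. The signs of 8 of the 10 genes held under all 11 alternatives, and Jak2 and Tyk2 reversed, to -0.135 and 0.073 with the GC trend subtracted and to -0.092 and 0.151 with the median of genes near in GC content and length subtracted. Among the 11, the filters on value cannot alter a gene's own fold change. The pseudocounts left each of the 10 genes the same as rounded here. Those settings therefore add no check of the signs. The median log2 fold change of the 10 genes (0.174) was 0.175 with a pseudocount of 0.1 or none, 0.181 with median-ratio scaling, 0.165 with quantile normalization, 0.29 scaled to Actb, 0.343 scaled to library totals, 0.094 without the GC trend, 0.136 without the trend with level, and 0.176 without the trend with GC content and length. The trends with level and with length were added after the data were seen. At 1.5-fold, 1 of the 10 genes was past the threshold upward in the deposited values, 2 scaled to library totals or without the trend with level, and 0 without the GC trend or the trend with GC content and length (counted after the data were seen). Over all listed genes the counts past the threshold, 1147 higher and 1418 lower at 2-fold, were 41 and 66 among well expressed genes (log2 of 8 or more in both libraries), 2345 and 2795 at 1.5-fold, and 573 and 733 at 3-fold.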
